A study of Bos taurus with 9 samples.

Results

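A set of 8 genes read as secreted or intracellular outputs of the YAP and serum response factor pathways (CCN1, CCN2, THBS1, EDN1, TGFB2, SRF, ANKRD1 and FHL2) was followed in bovine endometrial cells. They were chosen by symbol: every probe set on an Affymetrix bovine array whose annotation gives one of these symbols alone was taken, with the names CYR61 and CTGF accepted for CCN1 and CCN2. This gave 14 probe sets for the 8 genes, of 24016 tested probe sets and 9155 named genes. THBS1 had 6 probe sets, ANKRD1 had 2 and each of the other genes had 1.

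Stromal and epithelial cells from the endometrium of 9 slaughtered Holstein/Polish Black and White cows, taken between day 2 and day 5 of the cycle, were cultured together at 3 parts to 1. The LPA+IFNt group was given 1-oleoyl lysophosphatidic acid (LPA, 1e-06 M), a signalling lipid, together with interferon tau (IFNt, 1000 antiviral units, no volume stated), the interferon by which the ruminant embryo signals pregnancy. The LPA group was given the same LPA alone, and the Control group was given phosphate-buffered saline, with 3 arrays in each group. Exposure lasted 6 h in medium with albumin in place of serum. None of the 9 samples was given IFNt alone, so IFNt was seen only on top of LPA. Each array holds RNA pooled from 3 cows. As 9 pools of 3 were made from 9 cows, pools must share cows, and p-values measure the spread between these pools.

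YAP is a transcriptional coactivator that the Hippo kinases keep out of the nucleus. There it works through TEAD factors. SRF is a transcription factor that answers to actin dynamics through the MRTF coactivators and to growth factor signalling through ternary complex factors. LPA receptors are known activators of both routes in cultured cells, and CCN1, CCN2 and ANKRD1 are the usual readouts of YAP. CCN1, CCN2 and thrombospondin-1 are matricellular proteins of wound repair, endothelin-1 and TGF-beta 2 are secreted ligands, and ANKRD1 and FHL2 are intracellular regulators. No sequence is printed here.

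Values are log2 expression from RMA, so 1 unit is a 2-fold difference within a probe set, and levels are not compared between probe sets. A probe set was called when its adjusted p in limma was under 0.05 (Benjamini-Hochberg over all tested probe sets). A level was treated as measured when it lay above 2.80 on every array, the highest value of 3 probe sets for a bacterial trp transcript. By this bound 12 of the 14 member probe sets were measured. The SRF probe set stood between 2.01 and 2.02 on all 9 arrays and so says nothing about SRF. Probe set Bt.5301.2.A1_at of THBS1 stood between 2.16 and 2.38 and was not measured either.

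Arrays correlated with r of 0.998 to 0.9988 within LPA+IFNt, 0.9965 to 0.9979 within LPA and 0.9983 to 0.999 within Control. Of the markers of stromal cells, 11 of 11 measured by a probe set lay above the bound on average, and so did 11 of 11 epithelial markers. Of the endothelial markers 1 of 9 did, FLT1, with PECAM1, CDH5, KDR, VWF and TIE1 below it on all arrays. Of the smooth muscle and pericyte markers 4 of 7 did, with MYH11 and RGS5 below it on all arrays, and of the leukocyte markers 5 of 9. Over all probe sets 1282 were called in LPA+IFNt against Control, 17 in LPA against Control and 1571 in LPA+IFNt against LPA. With the replicate number as a block these counts were 2085, 11 and 2320.

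After 6 h the YAP readouts CCN1 and CCN2 stood at high and nearly equal values in all 3 groups, and none of the 8 genes was called in LPA against Control. Of 14 member probe sets 0 were called by limma, where the share called among all probe sets was 0.0708%, and 2 had an unadjusted p under 0.05, where 8.3% of all did. The median log2 fold change of the 14 was 0.02, against 0.002 over all probe sets. The 3 LPA and 3 Control arrays did not overlap for 2 of the 14, CCN1 and 1 probe set of THBS1, where the share over all probe sets was 10%. LPA+IFNt against Control had 1 of 14 called, lower, where 2.86% of all probe sets were called lower and 5.34% in either direction. LPA+IFNt against LPA had 1 of 14 called, higher, where 2.56% were called higher and 6.54% in either direction. Both calls were probe sets of THBS1. The medians of the 14 were -0.003 and -0.04 in these comparisons, against 0.02 and 0.02 over all probe sets. Arrays did not overlap for 1 and 2 of the 14 in these comparisons, where 23.1% and 18.7% of all probe sets did not. An unadjusted p under 0.05 was met by 1 and 3 of the 14, against 16.7% and 17.5% of all. Each pair of comparisons shares the arrays of 1 group, so their values are not independent.

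**Figure D1:**
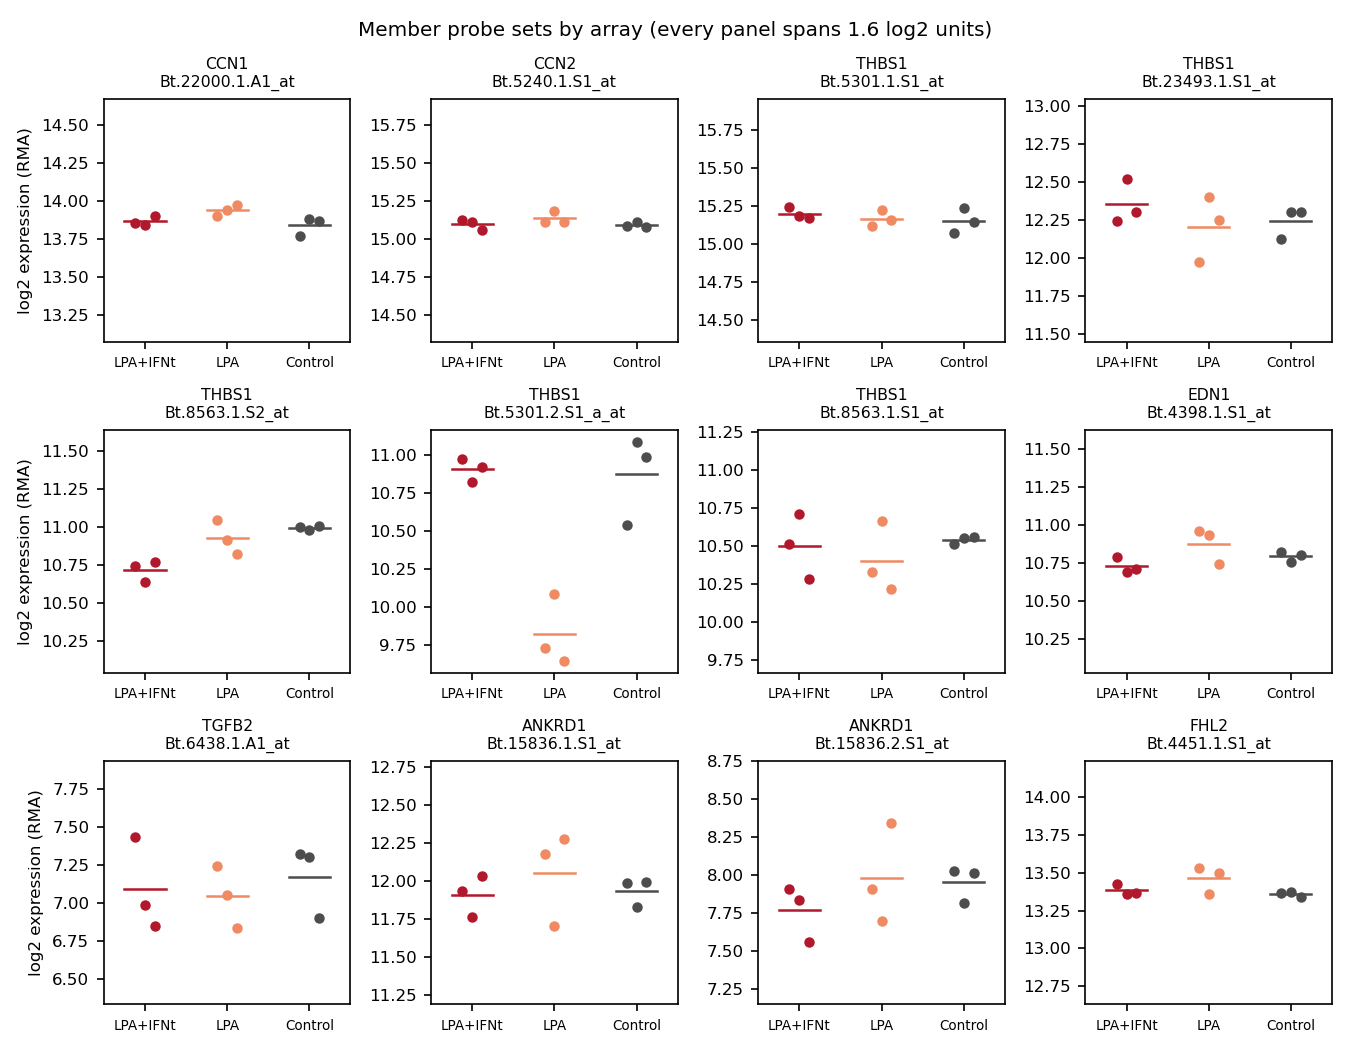
Log2 expression (y axis, RMA) of the 12 measured member probe sets on each array, with LPA+IFNt, LPA and Control from left to right on the x axis; points are arrays, bars are means of 3, and every panel spans 1.6 log2 units. Most panels are flat, while THBS1 probe set Bt.5301.2.S1_a_at has its 3 LPA arrays at 9.65 to 10.08, below the other 6.

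Among the matricellular genes, CCN1 was at 13.86, 13.84 and 13.91 on the LPA+IFNt arrays and at 13.90, 13.94 and 13.98 on the LPA arrays, against 13.77, 13.88 and 13.87 on the Control arrays. The LPA arrays all lay above the Control arrays, by little, and the LPA+IFNt arrays overlapped both. The CCN1 difference of LPA against Control was 0.10 on the log2 scale (SE 0.04, 95% interval 0.006 to 0.19), with an unadjusted p of 0.0392 and an adjusted p of 0.563 in limma. It was 0.03 in LPA+IFNt against Control (adjusted p = 0.717) and -0.07 in LPA+IFNt against LPA (adjusted p = 0.443). The upper ends of the 95% intervals against Control were a 1.14-fold rise of CCN1 with LPA and a 1.09-fold rise with LPA+IFNt.

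CCN2, the gene of connective tissue growth factor, varied least among the measured probe sets. It was at 15.12, 15.11 and 15.06 with LPA+IFNt and at 15.11, 15.19 and 15.11 with LPA, against 15.09, 15.12 and 15.08 in Control. The 3 groups overlapped and all 9 values lay within 0.13. The difference was 0.004 in LPA+IFNt against Control (95% interval -0.07 to 0.08), 0.04 in LPA against Control (-0.03 to 0.12) and -0.04 in LPA+IFNt against LPA (-0.11 to 0.04), with adjusted p of 0.945, 0.891 and 0.625. A rise of CCN2 above 1.09-fold with LPA lay outside the interval. CCN2 stood on average 0.49 below the highest value on its array, and whether signal this near the top of the range is compressed was not tested.

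THBS1, the gene of thrombospondin-1, a matrix glycoprotein that restrains angiogenesis and activates latent TGF-beta, gave different answers by probe set. On probe set Bt.5301.2.S1_a_at it was at 10.97, 10.82 and 10.92 with LPA+IFNt and at 9.73, 10.08 and 9.65 with LPA, against 10.54, 11.08 and 10.99 in Control. All 3 LPA arrays lay below the other 6, and the LPA+IFNt and Control arrays overlapped. Against LPA, this probe set was higher in LPA+IFNt by 1.08 (SE 0.16, 95% interval 0.71 to 1.46, adjusted p = 0.00751 in limma), a 2.12-fold difference. Between LPA and Control its difference was -1.05 (SE 0.16, 95% interval -1.43 to -0.68, unadjusted p = 0.000231, adjusted p = 0.0766), which missed the threshold although it ranked 71 of 24016 by p. Between LPA+IFNt and Control it was 0.03 (adjusted p = 0.912). The F test over the 3 groups called it too (adjusted p = 0.0104), the only call among the 14, where 5.99% of all probe sets were called.

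The low value with LPA kept its direction and size without any single array, while its call did not stay on 1 side. For LPA against Control the difference lay between -1.22 and -0.95 with each array left out, and adjusted p between 0.039 (without LPA replicate 2) and 0.273 (without LPA replicate 1). It also passed with dim probe sets left out (adjusted p = 0.0475), with an intensity trend (0.0371) and with spike-in centring (0.0268), and stood at 0.0943 with the replicate block. The call of LPA+IFNt against LPA held without each of the 9 arrays, with log2 fold changes of 1.00 to 1.22 and adjusted p of 0.00327 to 0.0361. With the block its adjusted p was 0.0142. In samples of mixed cells, fewer cells of a type and less RNA per cell cannot be told apart.

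The other measured THBS1 probe sets did not share the low value with LPA. Probe set Bt.5301.1.S1_at was at 15.24, 15.18 and 15.17 with LPA+IFNt and at 15.11, 15.22 and 15.15 with LPA, against 15.07, 15.23 and 15.14 in Control. Its groups overlapped, its differences lay between 0.02 and 0.05 with adjusted p of 0.611 to 1, and it stood 0.44 below the highest value on its array. Probe set Bt.23493.1.S1_at had a log2 fold change of -0.04 in LPA against Control (95% interval -0.32 to 0.24) and Bt.8563.1.S1_at one of -0.14 (-0.45 to 0.18). Neither interval reached -1.05.

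Probe set Bt.8563.1.S2_at differed in another comparison. It was at 10.75, 10.64 and 10.77 with LPA+IFNt and at 11.05, 10.91 and 10.82 with LPA, against 11.00, 10.98 and 11.01 in Control. The LPA+IFNt arrays lay below all the other 6. It was lower in LPA+IFNt against Control by -0.28 (SE 0.06, adjusted p = 0.0386), or 0.823 times the Control level, and stood at -0.21 in LPA+IFNt against LPA (adjusted p = 0.0976). The call was lost without any LPA+IFNt or Control array and without LPA replicate 2, with adjusted p of 0.0593 to 0.122. It held without LPA replicate 1 (0.0187) or LPA replicate 3 (0.0236). With spike-in centring the value was -0.22 (adjusted p = 0.321).

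**Figure D2:**
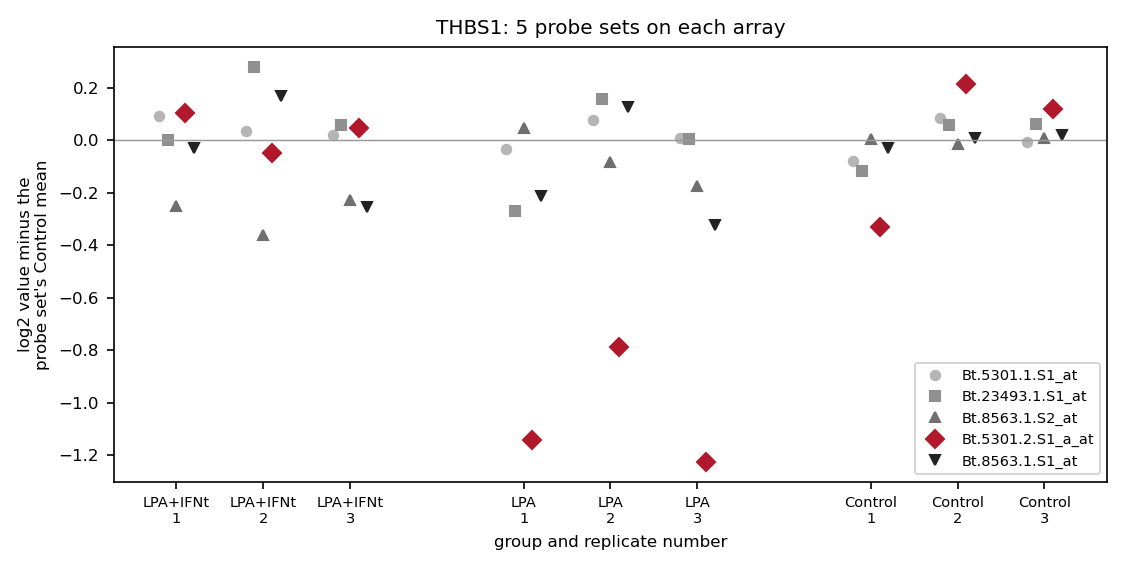
Log2 value of the 5 measured THBS1 probe sets on each array minus that probe set's Control mean (y axis), with arrays on the x axis by group and replicate number. The red diamonds of Bt.5301.2.S1_a_at lie far below the 4 grey probe sets on the 3 LPA arrays, and a smaller distance below them on Control replicate 1.

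Within an array, Bt.5301.2.S1_a_at was set against the mean of the 4 other measured THBS1 probe sets, as a description of the same values and no test. The log2 difference was -1.21, -1.44 and -1.21 on the LPA+IFNt arrays and -2.39, -2.22 and -2.47 on the LPA arrays, against -1.64, -1.18 and -1.26 on the Control arrays. Only its change between groups can be read. The LPA arrays stood apart from the other 6, and Control replicate 1 was the lowest of those. The means differed by -0.995 in LPA against Control and by 1.07 in LPA+IFNt against LPA. In Affymetrix naming the ending _a_at marks probes that match alternative transcripts of 1 gene. Where these probes lie on THBS1 was not analysed here, so whether a transcript form or the behaviour of these probes moved was not tested. With all 6 probe sets of the gene averaged, the THBS1 difference was -0.02 in LPA+IFNt against Control (adjusted p = 0.848), -0.21 in LPA against Control (0.323) and 0.19 in LPA+IFNt against LPA (0.137).

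The secreted ligands EDN1 and TGFB2 were not called in any comparison. EDN1, the gene of the vasoconstrictor endothelin-1, was at 10.79, 10.69 and 10.71 with LPA+IFNt and at 10.96, 10.93 and 10.74 with LPA, against 10.82, 10.76 and 10.81 in Control. LPA replicates 1 and 2 were the highest of the 9 and the LPA+IFNt group held the 2 lowest, but the groups overlapped. The difference was -0.15 in LPA+IFNt against LPA (SE 0.06, unadjusted p = 0.0411, adjusted p = 0.254) and 0.08 in LPA against Control (95% interval -0.06 to 0.22, adjusted p = 0.863). Without LPA replicate 3 it passed in LPA+IFNt against LPA, at -0.22 (adjusted p = 0.0368). Of the endothelial markers, PECAM1, CDH5, KDR and VWF lay under the bound. FLT1 lay above it, at means of 3.43 with LPA+IFNt and 3.45 with LPA, against 3.38 in Control. Which cells held the EDN1 RNA was not tested.

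TGFB2, the gene of a TGF-beta ligand, was at 7.43, 6.98 and 6.85 with LPA+IFNt and at 7.24, 7.05 and 6.83 with LPA, against 7.32, 7.30 and 6.90 in Control. The groups shared an order by replicate number: replicate 1 was the highest and replicate 3 the lowest in all 3 groups. Replicate 2 was not at a like level in each, at 6.98 with LPA+IFNt and 7.05 with LPA, against 7.30 in Control. The differences were -0.08 in LPA+IFNt against Control (adjusted p = 0.807), -0.13 in LPA against Control (adjusted p = 1) and 0.05 in LPA+IFNt against LPA (adjusted p = 0.888), each with an SE of 0.19. With the replicate number as a block the SE was 0.08 and adjusted p was at least 0.544. The interval of LPA against Control without the block was wide, at 0.677-fold to 1.23-fold.

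The regulators ANKRD1 and FHL2 were not called either. ANKRD1, a cardiac ankyrin repeat protein and a standard YAP readout, was at 11.93, 11.76 and 12.03 on Bt.15836.1.S1_at with LPA+IFNt and at 12.18, 11.71 and 12.27 with LPA, against 11.98, 11.83 and 11.995 in Control. LPA held both the highest and the lowest array, so the groups overlapped fully. The difference was 0.12 in LPA against Control (SE 0.15, 95% interval -0.22 to 0.46, adjusted p = 1), and LPA+IFNt against LPA stood at -0.14 (adjusted p = 0.649). The second probe set, Bt.15836.2.S1_at, ranged from 7.56 to 8.34 and had differences of -0.18 in LPA+IFNt against Control, 0.03 in LPA against Control and -0.21 in LPA+IFNt against LPA (adjusted p of 0.586 to 1). For ANKRD1 replicate 2 was the lowest array and replicate 3 the highest in all 3 groups on Bt.15836.1.S1_at.

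FHL2, a LIM-domain protein that binds SRF and other factors, was at 13.42, 13.36 and 13.37 with LPA+IFNt and at 13.53, 13.36 and 13.50 with LPA, against 13.36, 13.37 and 13.34 in Control. LPA replicates 1 and 3 were the highest of the 9, while LPA replicate 2 stood among the Control arrays. The difference was 0.11 in LPA against Control (SE 0.05, unadjusted p = 0.0589, adjusted p = 0.626) and 0.03 in LPA+IFNt against Control (adjusted p = 0.765). The interval of the LPA difference reached from 0.996-fold to 1.16-fold.

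**Figure D3:**
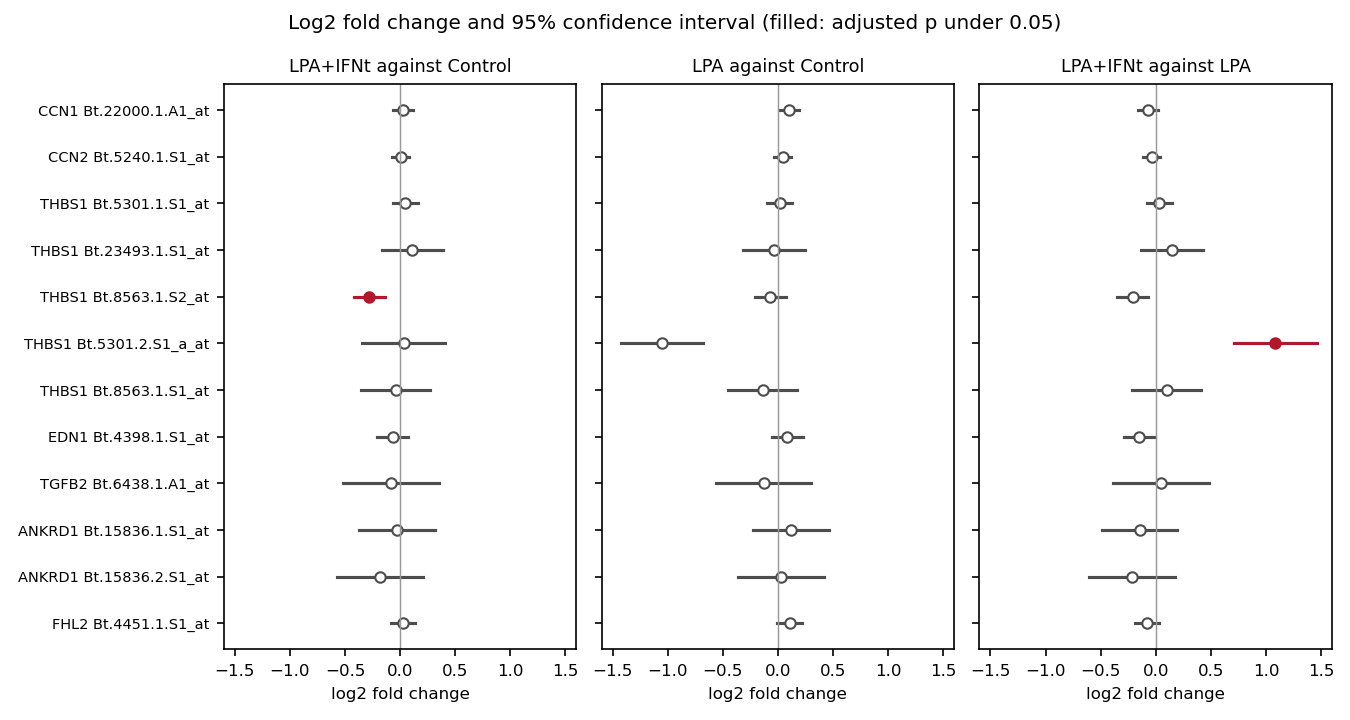
Log2 fold change (x axis) with 95% confidence interval from limma for the 12 measured member probe sets (rows) in each of the 3 comparisons; filled red points passed an adjusted p of 0.05. The intervals of CCN1, CCN2 and FHL2 are narrow and near 0, and only THBS1 probe sets passed.

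The dependence on replicate number was not common to all members. Of the 12 measured member probe sets 2 had the same replicate number highest and the same one lowest in all 3 groups, TGFB2 and the brighter ANKRD1 probe set, which is 16.7%, where the share over all 14389 probe sets above the bound on every array was 8.72%. THBS1 probe set Bt.23493.1.S1_at had replicate 1 lowest in all 3 groups, at 12.24 with LPA+IFNt and 11.97 with LPA, against 12.13 in Control. With the block its SE was 0.06, against 0.12 without it, and its adjusted p was at least 0.236. EDN1 had replicate 1 highest in all 3 groups, at 10.79 with LPA+IFNt and 10.96 with LPA, against 10.82 in Control. No replicate number of EDN1 was lowest in all 3. With the block its adjusted p was at least 0.172. CCN1, CCN2 and FHL2 had no such order.

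**Figure D4:**
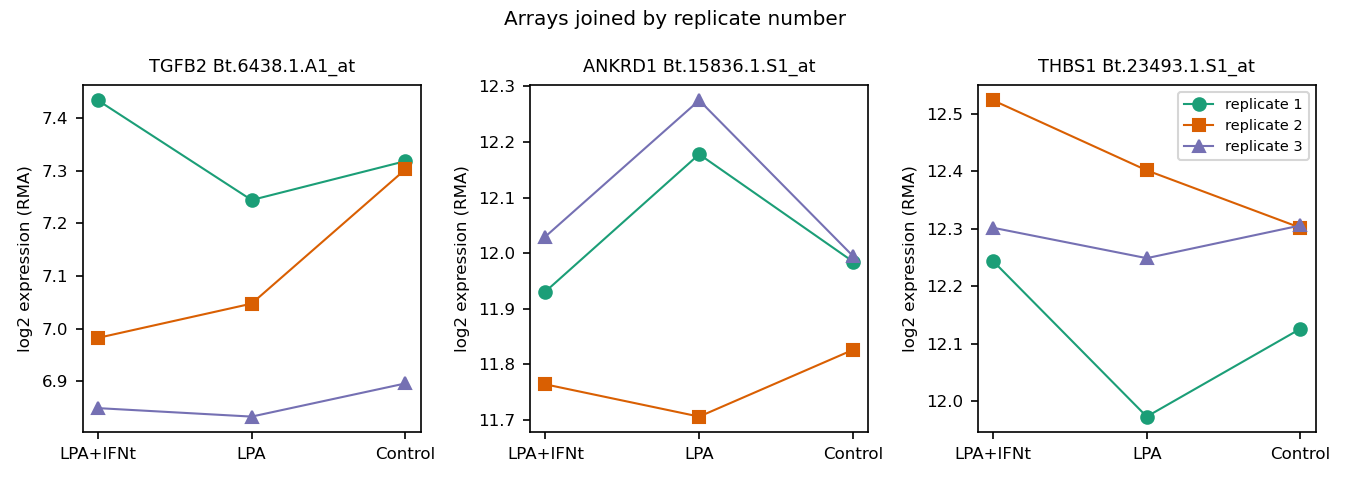
Log2 expression (y axis, RMA, a separate scale per panel) of TGFB2, ANKRD1 and THBS1 probe sets in LPA+IFNt, LPA and Control (x axis), with arrays of the same replicate number joined by a line. The lines of TGFB2 hardly cross: replicate 1 lies highest and replicate 3 lowest in each group.

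Paralogues of the members were compared from a list of 17 genes, of which 11 had a probe set and 5 lay above the bound on average. For LPA+IFNt against Control 2 were lower and 0 higher, in LPA against Control 0 were called, and in LPA+IFNt against LPA 2 were lower and 0 higher. For this and the lists below, 2.86% of all probe sets were lower and 2.48% higher in LPA+IFNt against Control. In LPA+IFNt against LPA 3.98% were lower and 2.56% higher, and in LPA against Control 0.0708% were called. THBS2, the gene of thrombospondin-2, a matricellular protein of stromal cells, was at 10.44, 10.24 and 10.47 with LPA+IFNt and at 11.32, 11.19 and 11.32 with LPA, against 10.98, 11.10 and 10.99 in Control. The LPA+IFNt arrays lay below the other 6 and the LPA arrays above. THBS2 fell in LPA+IFNt against Control by 0.64 on the log2 scale (SE 0.07, adjusted p = 0.00184) and in LPA+IFNt against LPA by 0.89 (adjusted p = 0.000307), and both calls held without each array. With LPA against Control it stood at 0.25 (adjusted p = 0.358). FHL1, a LIM-domain relative of FHL2, fell by 0.56 in LPA+IFNt against LPA (adjusted p = 0.00788, at most 0.0331 without any 1 array). It also fell by 0.45 in LPA+IFNt against Control (adjusted p = 0.0213), a call lost without LPA+IFNt replicate 2 or 3 or Control replicate 1 or 2 (adjusted p up to 0.0772). TGFB3 stood at 2.95 with LPA, against 2.78 in Control (adjusted p = 0.674), close to the bound.

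Receptors and processing genes of the secreted members (14 of 18 with a probe set) held 0 calls in LPA+IFNt against Control and in LPA against Control, and 2 lower in LPA+IFNt against LPA. EDNRA, the gene of the endothelin A receptor through which endothelin-1 acts on contractile cells, was at 6.17, 5.82 and 6.56 with LPA+IFNt and at 7.46, 6.995 and 7.64 with LPA, against 6.96, 7.10 and 6.97 in Control. The LPA+IFNt arrays lay below all others. EDNRA fell in LPA+IFNt against LPA by 1.18 (SE 0.21, adjusted p = 0.017) and stood at -0.82 in LPA+IFNt against Control (adjusted p = 0.0776). The call was lost without LPA+IFNt replicate 1, LPA replicate 1 or LPA replicate 3 (adjusted p up to 0.0719). It was also lost in a fit of only the LPA+IFNt and LPA arrays. The integrin gene ITGB3, whose product takes part in binding CCN1, CCN2 and thrombospondin-1, fell by 0.16 in LPA+IFNt against LPA (adjusted p = 0.0343) and lost its call without any of the 7 arrays other than LPA+IFNt replicate 2 and Control replicate 3 (adjusted p up to 0.1). LTBP2, a microfibril-associated protein gene, stood at 0.14 in LPA against Control (adjusted p = 0.614) and the integrin gene ITGAV at 0.50 (adjusted p = 0.763).

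**Figure D5:**
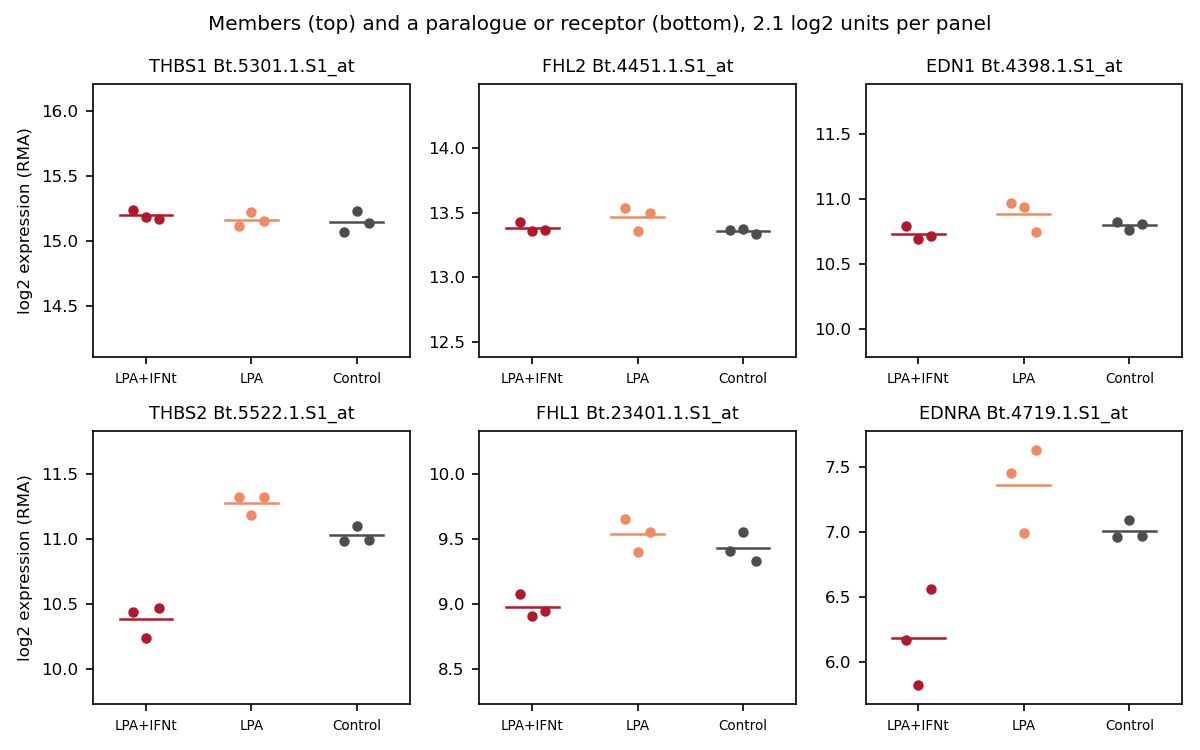
Log2 expression (y axis, RMA) of THBS1, FHL2 and EDN1 (top) and of THBS2, FHL1 and EDNRA (bottom) on each array, with LPA+IFNt, LPA and Control from left to right on the x axis; points are arrays, bars are means of 3, and every panel spans 2.1 log2 units. In the bottom row the LPA+IFNt arrays lie below all others, while the top row is nearly flat. THBS1 stands here by its brightest probe set, Bt.5301.1.S1_at. Its called probe sets, Bt.5301.2.S1_a_at and Bt.8563.1.S2_at, are not shown and were not flat.

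Other YAP and TEAD targets (11 of 20 with a probe set) had 1 lower and 0 higher in LPA+IFNt against Control, 0 called in LPA against Control, and 1 higher and 1 lower in LPA+IFNt against LPA. Their median log2 fold changes were 0.05, 0.05 and 0.02, against 0.02, 0.002 and 0.02 over all probe sets. IGFBP3, which encodes the main carrier protein of insulin-like growth factors in blood, was at 12.20, 12.03 and 12.03 with LPA+IFNt and at 11.23, 11.49 and 10.51 with LPA, against 11.70, 11.65 and 11.58 in Control. Like the THBS1 probe set Bt.5301.2.S1_a_at it had its LPA arrays lowest. IGFBP3 rose in LPA+IFNt against LPA by 1.01 (SE 0.22, adjusted p = 0.0367), a call that held without LPA replicate 2 or 3 but was lost without any of the other 7 arrays (adjusted p up to 0.115). Its second probe set stood at 1.09 (adjusted p = 0.0591). For LPA against Control it stood at -0.57 (adjusted p = 0.542).

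CRIM1, a membrane protein that binds bone morphogenetic proteins, fell by 0.31 in LPA+IFNt against LPA (adjusted p = 0.0146, lost without LPA+IFNt replicate 1 or 3, up to 0.0572). It fell by 0.25 in LPA+IFNt against Control (adjusted p = 0.0366, or 0.0572 with the replicate block), a call lost on leaving out 7 of the 9 arrays (up to 0.134). These values are of the brightest of 4 CRIM1 probe sets, which did not move alike. Against LPA, LPA+IFNt differed on the other 3 by -0.60 (adjusted p = 0.0187), -0.07 (adjusted p = 0.586) and -0.04 (adjusted p = 0.823). Against Control, 0 of these 3 passed, with adjusted p of 0.141 to 0.385. CCDC80 stood at 0.25 in LPA against Control (adjusted p = 0.501).

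The cytoskeletal targets of SRF and MRTF (18 of 20 with a probe set) had 2 lower in LPA+IFNt against Control, 0 called in LPA against Control and 3 lower in LPA+IFNt against LPA, with 0 higher throughout. Over all probe sets 2.86% were called lower in LPA+IFNt against Control and 3.98% in LPA+IFNt against LPA. The medians of these targets were -0.07, 0.05 and -0.13. ACTA2, the smooth muscle actin gene, was at 9.90, 9.63 and 9.74 with LPA+IFNt and at 10.87, 10.45 and 11.09 with LPA, against 10.27, 10.45 and 10.18 in Control. It fell by 1.05 in LPA+IFNt against LPA (SE 0.16, adjusted p = 0.00853, at most 0.0408 without any 1 array). TGFB1I1, a focal adhesion adaptor, fell by 0.55 in LPA+IFNt against LPA (adjusted p = 0.00715) and by 0.47 in LPA+IFNt against Control (adjusted p = 0.014, lost without LPA+IFNt replicate 1 or 3 or Control replicate 1 or 2, up to 0.0621). TPM2, a tropomyosin gene, fell by 0.50 in LPA+IFNt against LPA (adjusted p = 0.0273) and by 0.52 in LPA+IFNt against Control (adjusted p = 0.026), each call lost on leaving out 5 of the 9 arrays, LPA+IFNt replicates 1 and 3, LPA replicate 1 and Control replicate 2 in both, with LPA replicate 3 against LPA and Control replicate 1 against Control (up to 0.0909 and 0.101). The dimmer TPM2 probe set stood at -0.23 and -0.46 (adjusted p = 0.595 and 0.212). TAGLN stood at 0.52 in LPA against Control (adjusted p = 0.212) and CALD1 at 0.55 (adjusted p = 0.385).

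Hippo pathway and TEAD genes (7 of 19 with a probe set) held 0 calls in all 3 comparisons. TEAD4, a DNA-binding partner of YAP, stood at 0.36 in LPA+IFNt against LPA (adjusted p = 0.0998), and SAV1, a scaffold of the Hippo kinases, at 0.14 in LPA+IFNt against Control (adjusted p = 0.159). TEAD3 stood at 0.24 in LPA against Control (adjusted p = 0.701).

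Some stromal markers fell beside THBS2, FHL1, EDNRA and ACTA2, and others did not. Of 11 stromal markers 5 were lower in LPA+IFNt against LPA and 3 in LPA+IFNt against Control, with 0 higher, and their log2 summed level was 16.44 to 16.47 with LPA+IFNt and 16.68 to 16.79 with LPA, against 16.60 to 16.73 in Control. Over all probe sets 3.98% were called lower in LPA+IFNt against LPA and 2.86% in LPA+IFNt against Control. COL3A1, a fibrillar collagen gene, fell by 0.54 in LPA+IFNt against LPA (adjusted p = 0.00113) and by 0.51 in LPA+IFNt against Control (adjusted p = 0.00153). COL1A1 fell by 0.55, THY1 by 0.69 and FBN1 by 0.40 in LPA+IFNt against LPA, and in LPA against Control THY1 stood at 0.55 (adjusted p = 0.0713). PDGFRA and PDGFRB, the 2 of the 11 with a positive value against Control, stood at 0.06 and 0.05 there (adjusted p = 0.828 and 0.521). Against LPA 1 of the 11 was positive. In LPA against Control 11 of 11 were positive and 0 were called. Their median there was 0.06, against 0.002 over all probe sets. The sum adds linear values, so the brightest markers weigh most in it. The part of stromal markers in the falls was not tested.

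The other marker lists are given beside these values, and their part was not tested either. The summed level of epithelial markers was 15.65 to 15.71 with LPA+IFNt and 15.62 to 15.65 with LPA, against 15.61 to 15.69 in Control. CDH1 rose by 0.21 in LPA+IFNt against Control (adjusted p = 0.0112, or 0.0511 without Control replicate 2). CDH1 stood at 0.20 in LPA against Control (adjusted p = 0.0964) and at 0.008 in LPA+IFNt against LPA (adjusted p = 0.894). SPINT2 fell by 0.45 in LPA+IFNt against LPA (adjusted p = 0.00457). It stood at 0.49 in LPA against Control (adjusted p = 0.0566) and at 0.04 in LPA+IFNt against Control (adjusted p = 0.75). Smooth muscle and pericyte markers held 0 calls, with a summed level of 8.40 to 8.52 with LPA+IFNt and 8.76 to 8.93 with LPA, against 8.59 to 9.03 in Control. DES stood at -1.57 in LPA+IFNt against LPA (adjusted p = 0.0526) and SMTN at -0.93 in LPA+IFNt against Control (adjusted p = 0.0564). Of the endothelial markers 0 were called, with PECAM1 at -0.06 in LPA+IFNt against Control (adjusted p = 0.369). The leukocyte sum was 7.73 to 7.97 with LPA+IFNt and 8.10 to 8.48 with LPA, against 7.91 to 8.09 in Control, with CSF1R, TYROBP, CD3E and CORO1A below the bound on all arrays. Of these markers CD53 alone was called, higher by 1.26 in LPA+IFNt against Control (adjusted p = 0.0252) and by 1.15 in LPA+IFNt against LPA (adjusted p = 0.0336), with levels of 3.60 to 4.40 with LPA+IFNt and 2.45 to 3.24 with LPA, against 2.62 to 2.89 in Control, around the bound. These calls were lost on leaving out 6 and 7 of the 9 arrays (adjusted p up to 0.0974 and 0.107).

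For each measured member, the named gene above the bound with the most similar profile over the 9 arrays was looked up among about 8786 probe sets of other genes, by Pearson's r on the brightest probe set. It was SLPI for ANKRD1 (r = 0.984), DNMT3A for TGFB2 (r = 0.965), SLC35A5 for CCN1 (r = 0.963), NSUN4 for FHL2 (r = 0.959), DCUN1D1 for CCN2 (r = 0.949), ARPP19 for THBS1 (r = 0.949) and DDHD2 for EDN1 (r = 0.931). SLPI, a secreted protease inhibitor of epithelia, spanned 2.60 log2 units over the 9 arrays, where ANKRD1 spanned 0.57. These are the highest of many values over 9 arrays that share pools, and describe likeness only.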

How the data were processed

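Data came from 9 arrays (LPA+IFNt, LPA and Control, 3 pools each), grouped by their titles. The deposited log2 expression values came from the authors' RMA step; the submitters' processing notes name RMA and Partek, with versions and genome build not given in the sources used here. RMA corrects background, equalises array distributions by quantile normalization and summarises probes, so a change in most transcripts would be hidden. Base 2 was taken from the usual RMA output. Array medians lay at 4.29 to 4.37.

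Of 24128 probe sets, the 112 that Affymetrix uses as controls were set aside. Of the 24016 tested, 13292 had 1 symbol in the array annotation, and 0 symbols changed through the RefSeq table of ARS-UCD2.0, which held 13283 of 13318 entries with 1 symbol. limma 3.58.1 in R 4.3.3 (lmFit, eBayes, two-sided) was fitted to all 9 arrays without covariates, adjusted by Benjamini-Hochberg over all tested probe sets, and the fit was tested on simulated data. Array number limits precision. Intervals are not adjusted for multiple testing.

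Same-numbered arrays of different groups deviated together (r of 0.19 to 0.491 in 9 of 9 pairs), so the numbers were taken as pairing the samples in the block fit. The main fit left this pairing out. Its SEs, intervals and p-values, which are those given unless the block is named, are unpaired. Members and lists were chosen with earlier results of these data known. Named were all members, up to 4 called genes per list and comparison with the largest change, or among the 2 with the smallest p, and the nearest gene of each member. A list gene stands by its brightest probe set. Alternatives were the block, 2-group fits, a filter on dim probe sets, centring on 9 spike-in probe sets, an intensity trend, averaged probe sets and leaving out each array. Those for list genes were added after seeing the data. One further gene list that was tested is not reported here.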

Additional observations from a re-analysis of the deposited data

How the results depend on the processing

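For the members 624 log2 fold changes were recomputed: 572 kept direction and side of the threshold, 10 lost a call, 5 gained one, 0 reversed a call and 37 uncalled values changed sign (at most 0.21 in size). Calls over all probe sets in LPA+IFNt against Control (1282) became 2085 with the replicate block and 630 with probe sets averaged, and 791 to 1352 without 1 array. In LPA against Control (17) they became 11 with the block, 1 with only the 6 arrays compared, 37 without dim probe sets, 50 with spike-in centring, 36 with the trend, 31 with probe sets averaged and 0 to 169 without 1 array. In LPA+IFNt against LPA (1571) they became 1004 with only the 6 arrays compared, 756 averaged and 954 to 2204 without 1 array. Member probe sets called in LPA+IFNt against Control (1) became 0 with spike-in centring and 0 averaged, and 0 to 1 without 1 array. In LPA against Control (0) they became 1 without dim probe sets, 1 with spike-in centring, 1 with the trend and 0 to 1 without 1 array. In LPA+IFNt against LPA (1) they became 0 averaged and 1 to 2 without 1 array, and the F test's 1 became 0 averaged and 1 to 2 without 1 array. Averaging tests fewer features and mixes unlike probe sets. For the rest the cause was not tested. The block changed no member's call. For 25 called differences of named list genes 375 values were recomputed and 90 lost the call, 0 reversed. As only called differences were taken, a call could be lost there but not gained. With only the 6 arrays compared, IGFBP3, CRIM1, EDNRA, ITGB3, CD53 and TPM2 lost their calls against LPA, and TPM2 also its call against Control. FBN1 (adjusted p = 0.186 and 0.0904), CRIM1 (0.722 and 0.317) and ITGB3 (0.881) lost theirs with spike-in centring, and so did, against Control, FHL1 (0.0678), TGFB1I1 (0.0501), TPM2 (0.0892; 0.0655 against LPA), COL1A1 (0.103) and CDH1 (0.219). That centring shifted the overall median by 0.06 in LPA+IFNt against Control, 0.03 in LPA against Control and 0.03 in LPA+IFNt against LPA. Probe sets near the trp bound, SRF among them, carry no information on a change.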
